A study of Mus musculus with 59 samples.

Results

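The translation elongation and other TOP genes are 10 genes: Eef1a1, Eef2, Eef1b2, Eef1g, Eef1d, Tpt1, Npm1, Rack1, Pabpc1 and Hnrnpa1. They were chosen by name, as genes of peptide elongation and other well-known TOP mRNAs outside the ribosomal proteins. The rule used no measured value, but earlier results of these data were known when the choice was made. They are 10 of the 39017 genes counted in the RNA libraries and take up 25 of the 526765 genomic windows of 5 kb used for chromatin. All 10 passed the filter on low counts in every RNA and ChIP comparison that was tested.

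TOP mRNAs carry a terminal oligopyrimidine tract: transcription starts at a cytidine that is followed by an unbroken run of pyrimidines. Cells use the tract to switch the translation of these mRNAs on and off together, through the kinase mTOR and the cap-binding protein LARP1, and most of the mRNAs encode ribosomal proteins or translation factors. During elongation eEF1A brings aminoacyl-tRNA to the ribosome, the eEF1B subunits reload eEF1A with GTP, and eEF2 moves the ribosome along the mRNA.

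The study used mouse embryonic stem (ES) cells to ask how the microRNA-processing proteins DGCR8 and Drosha and the m6A methyltransferase METTL3 meet nascent RNA on chromatin, and what their loss and heat do to RNA. It held 35 RNA libraries depleted of ribosomal RNA and 24 ChIP libraries. All RNA cultures were of a 129xC57Bl6 hybrid background. The 2 conditional lines carried Rosa26:CRE with either DGCR8 Flox/Flox or Drosha Flox/Flox, and were given 0.5 µM 4-hydroxytamoxifen (4OHT), which switches on the Cre, for 24, 48 or 96 h or left untreated. There were 2 libraries per line, time and treatment, except 1 for the Drosha line at 96 h with 4OHT. Both arms of each line carried the Cre and the floxed alleles, and no line without floxed alleles was given 4OHT, so an effect of 4OHT or Cre and an effect of the deletion cannot be told apart. The heat RNA set held 4 METTL3KO lines (1d1, 3xU, 1d2 and 2c4d) and 2 parental cultures, each at 42 °C for 1 h and at 37 °C, in 12 libraries. All of these carried Rosa26:BirA and a FLAG/Avi tag on DGCR8, the parental cultures included. For ChIP, biotin-tagged DGCR8, Drosha, Dicer or METTL3 was pulled down with streptavidin beads from cells with BirA and FLAG/Avi-tagged genes, with no antibody. No streptavidin precipitate of untagged cells was analysed here, so each precipitate was set against an input. Where titles and other labels of a sample differed, the title was followed.

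RNA libraries held 7.10 to 13.6 counted reads, in units of 1e6, of which the 10 genes together took 0.544 to 0.822%. ChIP libraries held 13.8 to 86.3 in the same unit. Summed ES cell markers stood at 2445 to 5416 counts per 1e6 counted reads (CPM) in the floxed libraries and 2661 to 5304 CPM in the heat set, and no ES marker was at 0. Summed fibroblast markers stood at 5.70 to 145 CPM and 9.82 to 21.6 CPM in the same sets, so the cultures carried the defining markers of ES cells. In the Drosha line, Drosha RNA averaged 24.1 CPM with 4OHT and 117 CPM without at 96 h. In the DGCR8 line, Dgcr8 RNA went against the label: it averaged 256 CPM with 4OHT and 126 CPM without at 96 h. In the Drosha line Dgcr8 RNA was higher too, at 297 CPM with 4OHT and 114 CPM without. Counts over the whole gene do not check the deletion, and Microprocessor is known to cleave the Dgcr8 mRNA itself; libraries of this line are therefore called "labelled 4OHT", and directions in it rest on that label. In the METTL3KO lines Mettl3 RNA averaged 30.1 CPM, against 70.3 CPM in parental cells, at 37 °C.

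The first 24 transcribed bases show which of the genes start on a pyrimidine tract in the annotation. RefSeq start regions (GRCm38.p6) were at hand for Eef1a1, Eef2, Eef1b2, Tpt1, Rack1 and Hnrnpa1, and each is given from 6 bases before the annotated start to 24 bases after it, 5′ to 3′ on the gene's strand. Capitals mark a C followed by at least 4 further C or T. The regions lie at chr9:78481701-78481730 on the minus strand (Eef1a1) and, on the plus strand, at chr10:81176625-81176654 (Eef2), chr1:63176825-63176854 (Eef1b2), chr14:75845250-75845279 (Tpt1), chr11:48800354-48800383 (Rack1) and chr15:103240391-103240420 (Hnrnpa1).
Eef1a1: gCCCTCTTCCCgagggtgggggagaacggt
Eef2: ccgggcgttgacgtcagcggtCTCTTCCgc
Rack1: CTCTTTCTTTTTCTCCacagggtcgtggtg
Eef1b2: agttccgccggaagtagccgaggccttgcg
Tpt1: gacgacagttccgggggagccgcggacggt
Hnrnpa1: cgaggaggcgggataaaagggcgagcagaa
The tract began within 20 bases of the annotated start in 3 of the 6 genes: 10 bases long in Eef1a1, 7 in Eef2 and 16 in Rack1. Among all 32851 RefSeq start regions 48.2% held such a tract at that distance on the transcribed strand, and 80.3% on either strand, so a match is common. Among 71 ribosomal protein genes the share was 74.6%. The Eef2 tract began 15 bases after the annotated start, and only the Eef1a1 tract began within 5 bases of it, as 16.1% of all start regions did. The annotated first base can differ from the one used in these cells, and a missing match says only that these letters are not in this window.

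In ES cells left untreated, the 10 genes spanned a wide range of RNA level. Compared per kb of exon, in TMM-scaled CPM over the 12 untreated floxed libraries, the guanine nucleotide exchange subunit gene Eef1b2 had a lowest, median and highest level of 458, 604 and 737 CPM per kb. Eef2, the translocase, had 484, 588 and 714 CPM per kb. Eef1a1, the tRNA carrier, had 281, 335 and 386 CPM per kb. On this scale the 3 central elongation genes had the highest medians of the 10, and Eef2 did not overlap with Eef1a1. The order depends on the exon width given with the counts, which need not be the length of the mRNA. It was 5119 bases for Rack1, in a gene span of 5882, and 2493 for Eef1a1. In CPM not divided by width, Rack1 stood above Eef1a1. Their medians were 1242 and 897 CPM in the DGCR8 line and 1089 and 815 CPM in the Drosha line. Npm1, which encodes a nucleolar chaperone of ribosome assembly, stood at 193 to 391 CPM per kb with a median of 272, and its range overlapped that of Eef1a1. Rack1, a scaffold protein on the small ribosomal subunit, stood at 173 to 287 with a median of 223 CPM per kb. Pabpc1, the poly(A)-binding protein of the cytoplasm, stood at 97.5 to 153 with a median of 117 CPM per kb. Npm1 and Rack1 overlapped with each other, and Pabpc1 lay below every Rack1 value. The remaining eEF1B subunit genes were lower: Eef1g had a median of 55.6 CPM per kb and Eef1d one of 54.9, over nearly the same range. Tpt1, whose product TCTP is a conserved growth-linked protein, had a median of 32.3 CPM per kb, and Hnrnpa1, a splicing regulator, one of 13.6 CPM per kb.

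**Figure D1:**
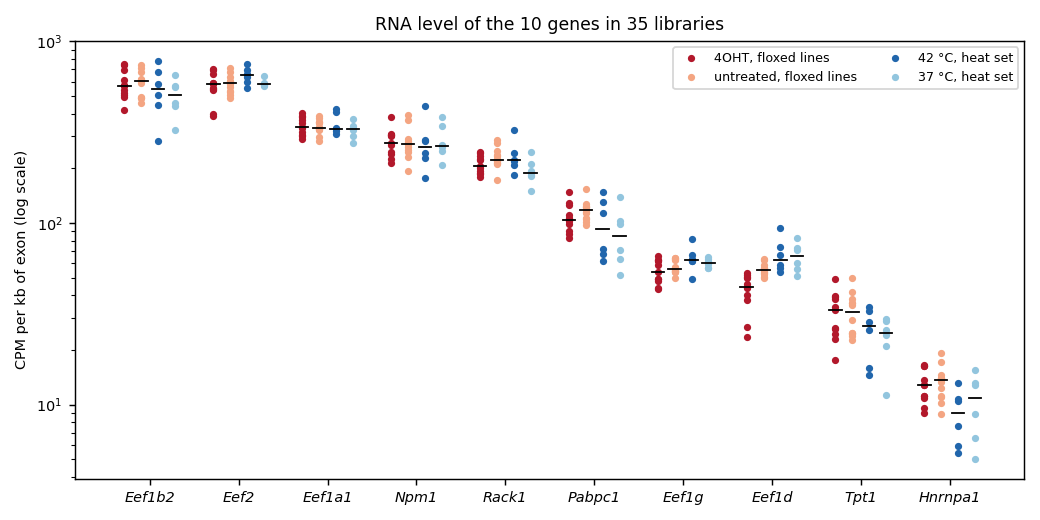
RNA level of each of the 10 genes in the 35 RNA libraries, in TMM-scaled CPM per kb of exon on a log axis, one point per library, coloured by treatment or temperature, with a bar at the median. Eef1b2, Eef2 and Eef1a1 stand highest and Hnrnpa1 lowest, and groups overlap within most genes.

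The order was nearly the same in the heat set, where the medians were 592 CPM per kb for Eef2, 533 for Eef1b2, 329 for Eef1a1 and 9.64 for Hnrnpa1. Eef1a1, Tpt1, Npm1 and Hnrnpa1 have processed copies elsewhere in the genome, and how reads that fit several copies were counted is not given in the sources used here, so their levels are uncertain. In the floxed libraries 5 listed Tpt1 copies held 132 to 322 reads, and Tpt1 itself held at least 544. The count of Tpt1 also overlaps a small nucleolar RNA gene, Snora31, whose own row reached 12.1% of the Tpt1 reads in one RNA set. The other host genes of small nucleolar RNAs, Eef2, Eef1b2 and Rack1, had at most 0.283% in those rows.

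Among untreated libraries the 2 floxed lines differed in level for some of the genes. In 6 DGCR8 and 6 Drosha libraries Tpt1 stood at 84.1 to 118 CPM and 54.1 to 69.8 CPM, Rack1 at 1156 to 1467 CPM and 886 to 1124 CPM, and Eef1b2 at 1538 to 1865 CPM and 1161 to 1521 CPM. These ranges did not overlap, whereas those of Pabpc1, Eef2 and Eef1d did (562 to 713 and 657 to 885 CPM, 1500 to 1881 and 1802 to 2213 CPM, 293 to 335 and 316 to 376 CPM). The lines were separate cell lines and this difference was not tested. The share of all genes whose ranges separate between the lines is not given here, and other genes separated too. In untreated libraries at 96 h, summed ES markers stood at 4468 to 4991 CPM in the DGCR8 line and 3158 to 3545 CPM in the Drosha line. Summed fibroblast markers stood at 8.00 to 10.2 CPM and 58.1 to 90.6 CPM. The 10 genes did not move as one unit from library to library. Over the 45 pairs of members, the median Pearson correlation of log2 CPM was −0.01 within the DGCR8 line (12 libraries), with pairs from −0.72 to 0.85, and −0.03 within the Drosha line (11 libraries), with pairs from −0.84 to 0.80. These values describe libraries that share treatments and scaling. The genes whose pattern over the floxed libraries was most like the mean of the 10 were Hypk, Stoml2, Cct7, Serf2 and Frg1, of 3770 genes compared, with correlations within each line of 0.90 to 0.94. In the heat set they were Ybx1, Pbdc1, Isyna1, Eif3h and Eif6, of 3857 genes, with a lowest value of 0.783 and a highest of 0.962 within a run of libraries.

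At 24 and 48 h none of the 10 genes passed the threshold (adjusted p under 0.05) between libraries with and without 4OHT in edgeR's quasi-likelihood test. Their median log2 change was −0.16 and −0.05 in the DGCR8 line and −0.10 and −0.08 in the Drosha line. All genes that passed made up 0.107% at 24 h and 1.48% at 48 h in the DGCR8 line, 0.184% and 2.82% in the Drosha line, and 0.44% and 8.18% in the average of both lines. At an unadjusted p under 0.05 the counts were 0 and 0 members in the DGCR8 line, 1 and 1 in the Drosha line, and 1 and 2 in the average, and DESeq2 called 0 throughout. Without the second 4OHT library of the Drosha line at 48 h, 1 member, Eef1d, passed in that line. The difference between the lines' effects also called 0 members at 24 h and 0 at 48 h (edgeR; 0 at an unadjusted p under 0.05 and 0 by DESeq2), where 0.00602% of all genes were called at each time. The labels do not say whether replicate libraries came from separate cultures, so the p-values reflect the spread among these libraries alone, and that spread may be technical.

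At 96 h the eEF1B subunit genes Eef1d and Eef1g were lower with 4OHT in both lines, and Eef2 and Pabpc1 were lower in the average of the lines, while Eef1a1, Eef1b2, Rack1 and Tpt1 did not pass the test in any of these comparisons. Eef1d moved most, by −0.94 ± 0.13 on the log2 scale in the average (SE; adjusted p = 3.04e-05, edgeR). Npm1 had the largest positive value of the 10 (0.35 ± 0.13 in the average), short of the threshold at an adjusted p of 0.0578 by edgeR.

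Eef1d encodes the delta subunit of eEF1B, a guanine nucleotide exchange factor. In the DGCR8 line it stood at 237 and 258 CPM in libraries labelled 4OHT and 297 and 311 CPM in untreated ones at 24 h, at 270 and 293 CPM and 335 and 327 CPM at 48 h, and at 138 and 222 CPM and 293 and 310 CPM at 96 h. In the Drosha line it stood at 297 and 313 CPM with 4OHT and 345 and 316 CPM without at 24 h, at 262 and 304 CPM and 367 and 333 CPM at 48 h, and at 157 CPM and 376 and 320 CPM at 96 h. In each line and at each time, every library with 4OHT lay below both untreated libraries, by as little as 313 against 316 CPM in the Drosha line at 24 h. The share of all genes that separate in this way is not given here, and groups of this size can separate by chance. The log2 changes were −0.29 ± 0.17, −0.22 ± 0.17 and −0.75 ± 0.17 at 24, 48 and 96 h in the DGCR8 line (adjusted p = 0.0178 at 96 h, edgeR) and −0.11 ± 0.11, −0.31 ± 0.11 and −1.15 ± 0.14 in the Drosha line (adjusted p = 8.58e-05 at 96 h).

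Eef1g encodes the gamma subunit that anchors the complex. At 96 h it stood at 114 and 124 CPM in DGCR8 libraries labelled 4OHT and at 166 and 166 CPM in untreated ones, a change of −0.48 ± 0.13 (adjusted p = 0.0385, edgeR). In the Drosha line it stood at 112 CPM with 4OHT and 147 and 149 CPM without, a change of −0.40 ± 0.10 (adjusted p = 0.0127). At 24 h the libraries overlapped in the DGCR8 line (139 and 164 CPM labelled 4OHT, 162 and 129 CPM untreated) and lay the other way in the Drosha line (160 and 153 CPM with 4OHT, 141 and 140 CPM without). The average change at 96 h was −0.44 ± 0.09 (adjusted p = 0.00133, edgeR).

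Eef2 passed in the Drosha line at 96 h, where it stood at 1195 CPM in the 1 library with 4OHT and 1850 and 1841 CPM without (−0.63 ± 0.13, adjusted p = 0.00313, edgeR); this call and the one in the average rest on that library, which has no replicate. In the DGCR8 line the libraries labelled 4OHT stood at 1226 and 1703 CPM and the untreated ones at 1500 and 1646 CPM, so the groups overlapped (−0.10 ± 0.14, adjusted p = 0.683). Pabpc1 passed in the DGCR8 line at 96 h, with 567 and 474 CPM labelled 4OHT and 704 and 713 CPM untreated (−0.44 ± 0.11, adjusted p = 0.0236). In the Drosha line its library with 4OHT at 745 CPM lay between the untreated ones at 737 and 885 CPM. Hnrnpa1 passed in the Drosha line, with 18.5 CPM with 4OHT and 26.9 and 37.1 CPM without (−0.79 ± 0.22, adjusted p = 0.0199), and its DGCR8 libraries overlapped.

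The members that did not pass in either line at 96 h include Eef1a1 and Eef1b2, which stand among the highest of the 10 in level per kb of exon. Eef1a1 stood at 1005 and 966 CPM in DGCR8 libraries labelled 4OHT and 894 and 889 CPM in untreated ones, and at 752 CPM and 845 and 700 CPM in the Drosha line, with and without 4OHT. Npm1 stood at 1016 and 808 CPM and 752 and 697 CPM in the DGCR8 line, and at 802 CPM and 728 and 516 CPM in the Drosha line. In the DGCR8 line libraries labelled 4OHT overlapped with untreated ones for Eef1b2 (1896 and 1283 CPM, 1720 and 1538 CPM), Rack1 (1235 and 994 CPM, 1266 and 1188 CPM) and Tpt1 (117 and 82.3 CPM, 90.7 and 86.1 CPM). In the Drosha line the library with 4OHT lay above both untreated ones for Eef1b2 (1440 CPM, 1247 and 1161 CPM) and Tpt1 (62.6 CPM, 59.3 and 57.0 CPM) and between them for Rack1 (1029 CPM, 1091 and 886 CPM).

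**Figure D2:**
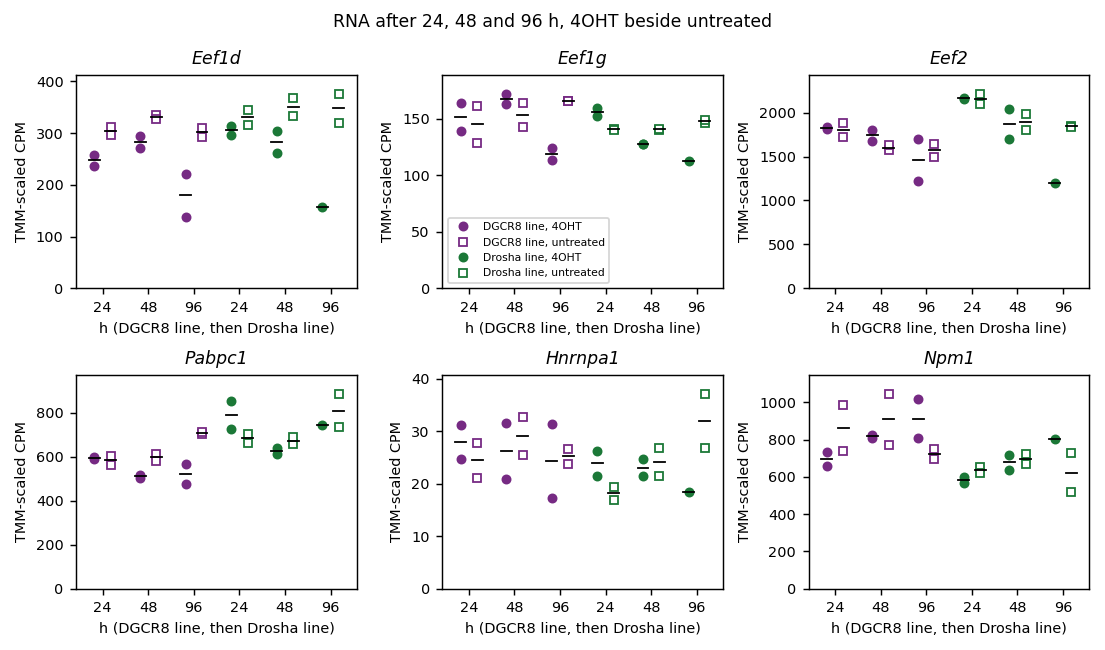
TMM-scaled CPM of Eef1d, Eef1g, Eef2, Pabpc1, Hnrnpa1 and Npm1 at 24, 48 and 96 h in the DGCR8 line and then the Drosha line, with 4OHT libraries (filled) left of untreated ones (open), one point per library and a bar at the mean. Eef1d points with 4OHT lie below the untreated ones at every time in both lines, and Eef1g points do so at 96 h. In the main fits Eef1d passed the test at 96 h only.

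Counted over the members at 96 h, 3 of 10 were called lower and 0 higher in the DGCR8 line, where 5.22% of all genes were called lower and 8.25% higher; 4 of 10 lower and 0 higher in the Drosha line, where 11% were called lower and 12.7% higher; and 4 of 10 lower and 0 higher in the average, where 13% were called lower and 15.1% higher. Because the Drosha line had 1 library with 4OHT at 96 h, that library is assumed to vary like the others of its line. These counts are edgeR's, and DESeq2 called 3, 4 and 5 members. The median log2 change of the 10 was −0.07, −0.08 and −0.16 in the 3 comparisons. The difference between the lines' effects at 96 h called 0 members (edgeR; 1 at an unadjusted p under 0.05, Eef2 at 0.52 ± 0.20 with an adjusted p of 0.315; 0 by DESeq2), where 0.181% of all genes were called. The change from 24 to 96 h was tested itself: in the average of the lines, the 96 h effect minus the 24 h effect was −0.74 ± 0.16 for Eef1d, −0.55 ± 0.12 for Eef1g and −0.40 ± 0.12 for Pabpc1 (adjusted p = 0.0102, 0.0085 and 0.0383, edgeR), where 3.55% of all genes were called lower. Npm1 moved by 0.57 ± 0.18 in the same test (adjusted p = 0.0567), and DESeq2 called 4 members.

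The call in the DGCR8 line rests on few libraries. With only the 2 groups at 96 h in the fit, or without the first or the second untreated library, 0 members passed, and with library totals in place of TMM 1 did, Pabpc1. In the average of the lines, leaving out any 1 of the other 6 libraries kept Eef1d, Eef1g and Eef2 among those called; the 1 Drosha library with 4OHT could not be left out, and without it the comparison is that of the DGCR8 line alone, where Eef2 did not pass. Fitting only the groups compared, the average kept 2, Eef1d and Eef1g. The difference between the lines called 2 members, Eef1d and Eef2, without the first DGCR8 library labelled 4OHT. The 96 h minus 24 h effect called 7 members without the second DGCR8 library labelled 4OHT. Scaling by library totals moved the median of all genes at 96 h by −0.11 in the DGCR8 line and −0.30 in the Drosha line. Counts from the mitochondrial genome differed at 96 h too: they made up 33.4 and 12.3% of reads in DGCR8 libraries labelled 4OHT and 19.7 and 16.9% in untreated ones, and 28.7% with 4OHT and 15.9 and 16.6% without in the Drosha line. The 10 ES markers summed to 3346 to 5416 CPM labelled 4OHT and 4468 to 4991 CPM untreated in the DGCR8 line, and to 2445 CPM and 3158 to 3545 CPM in the Drosha line. Summed endoderm markers were 359 to 665 CPM and 483 to 527 CPM in the DGCR8 line and 913 CPM and 742 to 777 CPM in the Drosha line, and summed fibroblast markers 5.70 to 13.2 CPM and 8.00 to 10.2 CPM, and 102 CPM and 58.1 to 90.6 CPM. Summed neuroectoderm markers were 135 to 233 CPM labelled 4OHT and 104 to 111 CPM untreated in the DGCR8 line, where 4 of the 6 tested were called higher (edgeR), and 189 CPM and 247 to 255 CPM in the Drosha line. The part of these in the changes was not tested, and in bulk samples fewer cells of a type and less RNA per cell cannot be told apart.

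Other genes of translation also fell in the average of the lines at 96 h. Of 81 ribosomal protein genes, the largest group of TOP mRNAs, 31 were called lower and 1 higher, among them Rpl27 (−1.06, adjusted p = 0.000192, edgeR). Of 15 further elongation genes tested, 4 were called lower and 0 higher. Of these Dph5 (−0.58), Dph3 (−0.62) and Dph7 (−0.49) belong to the pathway that makes diphthamide, a modified histidine of eEF2, and Eif5a (−0.30) encodes a factor that relieves stalled ribosomes. Of 15 genes of TOP control, 5 were called lower and 0 higher, including Akt1s1 (−0.76), Larp1 (−0.53), Eif4ebp2 (−0.65) and Eif4ebp1 (−0.36), which encode an mTORC1 inhibitor, the TOP-binding repressor and cap-binding inhibitors. Of 7 other TOP genes Vim rose (0.80, adjusted p = 1.56e-06) and Eif3a fell (−0.39, adjusted p = 0.0216, edgeR). Counts of these lists stand beside the shares of all genes given above for the average of the lines.

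Before the heat RNA comparisons, a split within that set needs giving. The 12 libraries fell into 2 runs of 6 by the numbers in their titles, each with 1 parental culture and 2 METTL3KO lines at both temperatures, and the runs were set apart after the data were seen. With the run as a term in the fit, 20.8% of all genes differed between the second and the first run, and so did 4 members. Pabpc1 was lower in the second run by −0.91 ± 0.09 and Hnrnpa1 by −0.96 ± 0.14, and Eef1b2 was higher by 0.64 ± 0.13 and Eef1d by 0.46 ± 0.10 (adjusted p = 0.000324, 0.00129, 0.00573 and 0.00935, edgeR). What the runs are is not given in the labels; they hold different cell lines.

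In METTL3KO cells none of the 10 genes passed the test against parental cells, at 37 °C or at 42 °C. Eef1a1 at 42 °C had 767, 816, 801 and 826 CPM in the METTL3KO lines, against 1050 and 1021 CPM in parental cells, so that the groups did not overlap. At 37 °C it had 852, 813, 752 and 683 CPM in METTL3KO lines, against 832 and 929 CPM in parental cells, which overlapped. Rack1 at 42 °C had 1068, 936, 1123 and 1141 CPM in METTL3KO lines, against 1249 and 1667 CPM in parental cells, also without overlap. Eef2 separated the other way at 37 °C, with 1792 to 1988 CPM in METTL3KO lines and 1765 to 1787 CPM in parental cells. The share of all genes without overlap is not given here, and groups of this size can separate by chance. Npm1 at 42 °C had 766, 469, 608 and 643 CPM in METTL3KO lines, against 750 and 1176 CPM in parental cells, and only its first METTL3KO value reached the parental range. The log2 differences at 42 °C were −0.37 ± 0.15 for Eef1a1, −0.45 ± 0.20 for Rack1 and −0.63 ± 0.26 for Npm1 (adjusted p = 0.255, 0.283 and 0.254, edgeR), and these 3 were the members at an unadjusted p under 0.05. At 37 °C 0 members reached that level, and DESeq2 called 0 at either temperature. All genes called made up 0.902% at 37 °C and 0.64% at 42 °C. With the run as a term, 0 members were called at either temperature by edgeR, although 5.06% and 4.72% of all genes then were, and 2 and 3 members had an unadjusted p under 0.05. Within the first and the second run, METTL3KO minus parental at 42 °C was −0.41 and −0.33 for Eef1a1, −0.32 and −0.56 for Rack1 and −0.32 and −0.91 for Npm1. At 37 °C the second run gave −0.37 for Eef1a1, −0.40 for Rack1 and −0.60 for Npm1, and the first gave −0.04 for Rack1 and values nearer 0 for the other pair. The summed ES markers also stood lower in METTL3KO lines (2661 to 4363 CPM) than in parental cells (4505 to 4761 CPM) at 42 °C, as did the endoderm markers (68.6 to 210 CPM and 300 to 371 CPM). Their part in the difference was not tested.

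After 1 h at 42 °C the RNA of none of the 10 genes passed the test. In edgeR's test 0 members were called in METTL3KO lines (0.185% of all genes were), 0 in parental cells (0.0192%) and 0 for the difference between the genotypes (0%), with 0 members at an unadjusted p under 0.05 and 0 by DESeq2 in each. The median log2 change of the 10 was 0.06 in METTL3KO lines and 0.13 in parental cells. With the run as a term the counts stayed at 0, beside 0.524%, 0.032% and 0% of all genes, and 0, 1 and 0 members had an unadjusted p under 0.05. With the cell line as a block the fit also called 0 members in each, and 3, 2 and 1 had an unadjusted p under 0.05. The lowest adjusted p in that fit was 0.0809, for Pabpc1 in METTL3KO lines (edgeR). The share of all genes called in it is not given here. The heat did act on the cells: the heat shock gene Hspa1a rose by 7.53 ± 0.29 on the log2 scale in METTL3KO lines and by 7.86 ± 0.41 in parental cells (adjusted p = 3.63e-08 and 1.78e-06, edgeR). Eef2 stood at 1717, 2147, 2039 and 2310 CPM in METTL3KO lines and 1855 and 1981 CPM in parental cells at 42 °C, and at 1792, 1988, 1793 and 1816 CPM and 1765 and 1787 CPM at 37 °C.

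On chromatin, METTL3 was higher than input over Eef1a1, Eef2, Rack1, Eef1b2 and Eef1g. Reads were summed for each gene over the 5 kb windows that overlap its span on mm10: Eef1a1 at chr9:78478453-78481724 (2 windows), Eef2 at chr10:81176631-81182509 (2), Eef1b2 at chr1:63176831-63180486 (2), Eef1g at chr19:8967041-8978180 (3), Eef1d at chr15:75894796-75909784 (4), Tpt1 at chr14:75845256-75848303 (1), Npm1 at chr11:33152498-33164142 (3), Rack1 at chr11:48800360-48806241 (2), Pabpc1 at chr15:36595658-36609581 (3) and Hnrnpa1 at chr15:103239943-103246698 (3). Windows are larger than some of the genes and shared with neighbours for all of the genes except Eef1a1, Npm1 and Pabpc1, so a part of the signal can belong to a neighbour. In the METTL3 set, with 2 clones, 5 of the 10 genes were called higher in the precipitate than in the input and 0 lower, where 20.1% of all genes were called higher.

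Eef1a1 had 21.1, 22.8, 26.5 and 16.9 CPM in the 4 METTL3 precipitates and 8.86 and 9.65 CPM in the 2 inputs, a log2 difference of 1.25 ± 0.15 (adjusted p = 1.18e-06, edgeR). Eef2 had 33.4, 44.5, 48.2 and 39.2 CPM in precipitates and 24.1 and 23.5 CPM in inputs (0.80 ± 0.11, adjusted p = 9.35e-06). Rack1 had 21.8, 28.5, 35.0 and 23.5 CPM in precipitates and 14.9 and 17.2 CPM in inputs (0.77 ± 0.15, adjusted p = 0.000293). For these 3 genes every precipitate lay above both inputs, as it did, by little, for Eef1b2 and Eef1g. The share of all genes with this separation is not given here. Eef1b2 (0.51 ± 0.16, adjusted p = 0.0138) and Eef1g (0.36 ± 0.12, adjusted p = 0.0241) passed with smaller differences. Eef1d did not differ by the test, at 24.2, 30.9, 45.8 and 36.4 CPM in precipitates and 33.1 and 35.6 CPM in inputs. Tpt1 (0.39), Npm1 (0.20), Pabpc1 (0.19) and Hnrnpa1 (−0.01) did not pass either as sums over their windows. Tested window by window, Npm1 and Pabpc1 held windows called in both directions. In order of position Npm1 had 2.03 ± 0.26, 0.91 ± 0.26 and −1.02 ± 0.18 (adjusted p = 5.39e-11, 0.00514 and 2.11e-06, edgeR). Pabpc1 had 0.91 ± 0.24, 0.80 ± 0.25 and −0.88 ± 0.19 (adjusted p = 0.00235, 0.0139 and 0.000106, edgeR). The median of the 10 was 0.37, beside 0.04 over all genes. Without the input of clone 1, 3 members passed, Eef1a1, Eef2 and Rack1. Of other TOP genes 4 of 7 were called higher and 1 lower, of ribosomal protein genes 36 of 81 higher and 10 lower, of other elongation genes 3 of 16 higher and 5 lower, and of TOP control genes 4 of 15 higher and 4 lower.

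In Eef1a1, Eef2, Eef1b2 and Rack1 METTL3 stood higher in the window downstream than in the window that holds the start. Tested window by window, where 4.14% of all windows were called higher and 12.5% lower, the Eef1a1 window centred 4.22 kb downstream of the RefSeq start (chr9:78475001-78480000) had a log2 difference of 3.60 ± 0.28 (adjusted p = 1.53e-23, edgeR), and the window that holds the start (chr9:78480001-78485000) one of −0.82 ± 0.18 (adjusted p = 0.000218). Eef2 had 1.39 ± 0.24 at 5.87 kb and −0.65 ± 0.19 at its start window (adjusted p = 7.36e-07 and 0.00763). Eef1b2 had 1.55 ± 0.23 at 5.67 kb and −0.33 at its start window (adjusted p = 5.35e-09 and 0.262), and Rack1 1.08 ± 0.22 at 7.14 kb and −0.37 at its start window (adjusted p = 5.15e-05 and 0.184). Hnrnpa1 had 0.68 ± 0.21 at 7.10 kb, 0.56 at its start window and −1.56 ± 0.19 in the window upstream (adjusted p = 0.0104, 0.0591 and 1.76e-12). The single window of Tpt1 had 0.16 (adjusted p = 0.645). In each of these 5 genes with several windows, the last window thus lay above the first. These last windows reach past the annotated end of the gene: that of Eef1b2 starts at 63180001, and the gene ends at 63180486. Except for that of Eef1a1 they are shared with a neighbour gene. For Hnrnpa1 the first window lies upstream of the RefSeq start, and its start and last windows lay within their errors of each other. With precipitates pooled over inputs pooled, the median gap between last and first window was 2.02 for the 5 genes, and 1.83, 2.21, 1.99 and 1.95 in the 4 precipitates taken one by one. The gap is not particular to the members: it was above 0 in 86.4% of the 712 genes of like size with an RNA level above 58.9 CPM, with a median of 1.09, and in 67.9% of all 6812 genes of like size, with a median of 0.38.

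**Figure D3:**
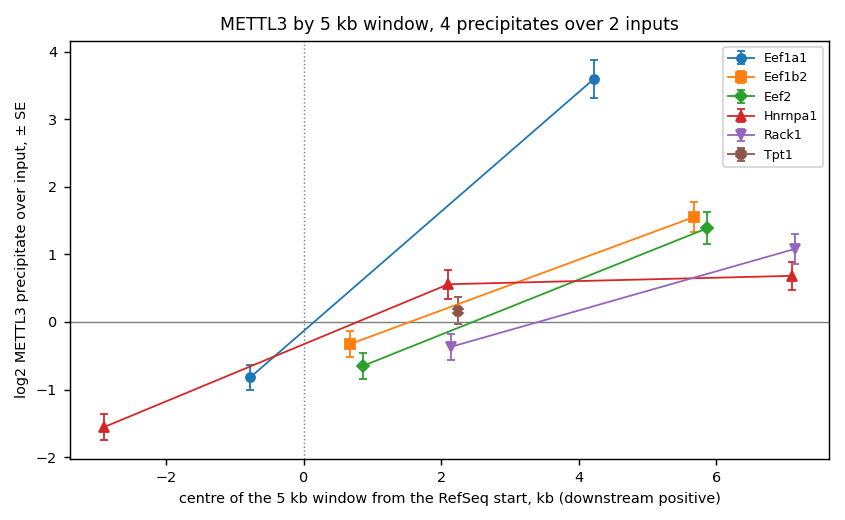
Log2 METTL3 precipitate over input, ± SE, for each 5 kb window of the 6 genes with a RefSeq start, against the distance of the window centre from that start in kb. Windows downstream of the start stand above the windows that hold it, by little in Hnrnpa1, and the downstream Eef1a1 window stands highest at 3.60.

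Among the Microprocessor proteins, DGCR8 and Drosha each had 7 of the 10 genes past 2-fold over input after crosslinking with DSG, a reagent that reaches over longer distances than formaldehyde alone, while the Dicer ratios lay near 0. Each of these precipitates is 1 library, so no test is given and the 95% intervals cover counting error only. DGCR8 with DSG over its input was above 0 on the log2 scale for all 10 genes, with a median of 1.57 and 7 of 10 past 2-fold, beside 9.59% of all genes. Eef1a1 had 41.7 CPM in the DSG precipitate and 5.78 CPM in the input, a log2 ratio of 2.85 (2.66 to 3.05). Npm1 had 33.6 and 5.42 CPM (2.63), Tpt1 15.8 and 3.02 CPM (2.38), and Rack1 44.2 and 12.0 CPM (1.88). Eef1d had 45.0 and 34.9 CPM, a ratio of 0.37, the lowest of the 10.

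Drosha over the parental input had a median of 1.23, with 7 of 10 past 2-fold, beside 8.27% of all genes. Of the 7 genes of each protein, 5 were shared: Eef1b2 and Tpt1 were past 2-fold for DGCR8 with DSG but not for Drosha, and Eef2 and Eef1g for Drosha but not for DGCR8. Npm1 had 45.6 CPM in the Drosha precipitate and 7.03 CPM in the input (2.69, 2.47 to 2.92), Eef1a1 35.0 and 7.53 CPM (2.21), and Eef1d 23.0 and 37.3 CPM (−0.70). For Dicer over the same input 0 of 10 were past 2-fold, beside 0.154% of all genes, and the ratios ran from −0.38 for Tpt1 to 0.29 for Hnrnpa1. DGCR8 after formaldehyde alone had a median of 0.07 with 0 of 10 past 2-fold, beside 3.01% of all genes, and ran from −0.32 for Eef1d to 0.87 for Tpt1. Inputs differed among themselves as well: the DGCR8 input lay below the parental input for all 10 genes, with a median of −0.33. All genes with an RNA level above 58.9 CPM had medians of 0.41 for DGCR8 with DSG and 0.18 for Drosha, and ribosomal protein genes 1.16 and 1.02.

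In the heat set, which was counted in a separate table, most of the genes were above input at 37 °C for DGCR8 and for METTL3. DGCR8 over its input had a median of 2.13 with 9 of 10 past 2-fold, beside 14.6% of all genes. METTL3 precipitates were titled H4 and H5, and the labels do not say what these names stand for. METTL3 was called higher than input for 8 of 10 genes and lower for 0, where 20.3% of all genes were called higher, with a median of 1.18. The calls were Eef1a1 (2.84 ± 0.28), Npm1 (1.96 ± 0.36), Rack1 (1.59 ± 0.28), Pabpc1 (1.46 ± 0.25), Eef2 (1.19 ± 0.30), Hnrnpa1 (1.17 ± 0.20), Eef1g (1.04 ± 0.19) and Tpt1 (0.76 ± 0.23), with adjusted p from 0.00563 to 0.0361 (edgeR). Eef1b2 (0.73, adjusted p = 0.113) and Eef1d (−0.30, adjusted p = 0.563) did not pass. Without the H5 precipitate at 37 °C, 3 members passed. Among the 10 genes Eef1a1 ranked first or second over input for METTL3, DGCR8 and Drosha in each set, and Eef1d ranked last or next to last.

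**Figure D4:**
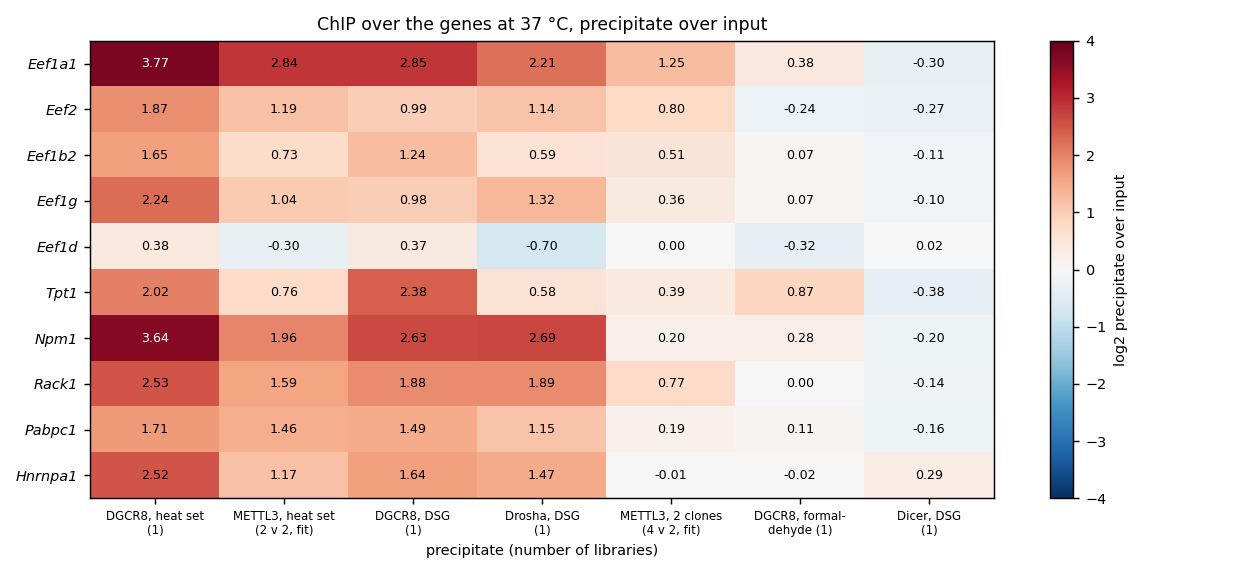
Log2 precipitate over input at 37 °C for the 10 genes (rows) in each precipitate (columns, with the number of libraries). Eef1a1 is the highest or second highest row for DGCR8 with DSG, Drosha and METTL3, Eef1d is the lowest in most columns, and the Dicer column lies near 0.

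DGCR8 was also precipitated from METTL3-knockout and wild-type cells, 1 library each. All 10 genes had less signal in the knockout, with a median log2 ratio of −0.45, beside a median of −0.07 for all genes with an RNA level above 58.9 CPM and −0.43 for ribosomal protein genes. Only Eef1a1 was past 2-fold lower, beside 0.822% of all genes. Eef1a1 had 8.42 CPM in the knockout precipitate, 19.2 CPM in the wild-type precipitate and 7.07 CPM in the wild-type input, a knockout to wild-type ratio of −1.18 (−1.44 to −0.94). Tpt1 had 4.49, 8.82 and 6.99 CPM (−0.97, −1.33 to −0.64), Rack1 9.48, 18.2 and 13.3 CPM (−0.94, −1.18 to −0.71), and Npm1 10.7, 18.9 and 9.39 CPM (−0.82, −1.05 to −0.60). The remaining 6 genes had ratios from −0.50 to −0.23. In the knockout precipitate 7 of the 10 genes lay below the wild-type input, all except Eef1a1, Npm1 and Pabpc1. The share of all genes below that input is not given here, and this set held no input of the knockout cells. The wild-type precipitate itself was weak, with a median of 0.34 over input and 2 of 10 genes past 2-fold, beside 3.01% of all genes. This ratio and the knockout to wild-type ratio share the wild-type precipitate.

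After 1 h at 42 °C the DGCR8 signal over all 10 genes was lower. With 1 library per temperature there is no test. DGCR8 at 42 °C over 37 °C had a median log2 ratio of −2.27, and 9 of 10 genes were past 2-fold lower, beside 10.9% of all genes. Eef1a1 had 13.3 CPM at 42 °C, 123 CPM at 37 °C and 8.95 CPM in the input, a ratio of −3.20 (−3.31 to −3.10). Npm1 had 13.5, 120 and 9.57 CPM (−3.14), Eef1g 13.3, 80.0 and 16.9 CPM (−2.58), and Hnrnpa1 15.3, 88.2 and 15.3 CPM (−2.52). At 42 °C Eef1g thus lay below the input and Hnrnpa1 level with it, and Eef1a1 and Npm1 stayed above it. Eef1d had 27.5, 50.8 and 39.2 CPM, and its ratio of −0.88 was the smallest in size. In Eef1a1 the downstream window fell further than the start window: it held 4.81 CPM at 42 °C and 79.2 CPM at 37 °C (−4.03, −4.21 to −3.88), and the start window 8.53 and 43.6 CPM (−2.35, −2.50 to −2.21).

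METTL3 moved the same way in H4 and H5, but the change did not pass the test. Eef1a1 had 9.59 and 14.3 CPM in H4 and H5 at 42 °C, 67.6 and 61.7 CPM at 37 °C and 11.4 and 7.24 CPM in the inputs. Rack1 had 15.6 and 18.0 CPM at 42 °C, 63.5 and 42.0 CPM at 37 °C and 22.3 and 13.8 CPM in the inputs. Npm1 had 15.8 and 15.7 CPM at 42 °C, 58.8 and 34.5 CPM at 37 °C and 16.7 and 8.08 CPM in the inputs. For all 3 genes, and for every other member except Eef1d, both libraries at 42 °C lay below both at 37 °C. The share of all genes that separate in this way is not given here. Eef2 had 21.6 and 33.5 CPM at 42 °C and 66.9 and 77.5 CPM at 37 °C, while Eef1d, at 20.6 and 47.9 CPM and 32.0 and 52.5 CPM, overlapped. All 10 log2 changes were negative, with a median of −1.13 beside 0.08 over all genes, and 0 members were called (edgeR; 0.0558% of all genes were called lower). At an unadjusted p under 0.05 there were 8 members. DESeq2 called 8 members, and it called 814 genes in all, in either direction. The values nearest the threshold were Eef1a1 at −2.29 ± 0.27 (adjusted p = 0.0539), Eef1g at −1.15 ± 0.19 (adjusted p = 0.0923) and Rack1 at −1.5 ± 0.28 (adjusted p = 0.114, edgeR). With H4 and H5 as a block, 4 members were called lower: Eef1a1 (−2.29, adjusted p = 0.0102), Eef1g (−1.16, adjusted p = 0.0210), Rack1 (−1.46, adjusted p = 0.0214) and Npm1 (−1.35, adjusted p = 0.0321, edgeR). The share of all genes called in the blocked fit is not given here, and the 0.0558% above belongs to the fit without the block.

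**Figure D5:**
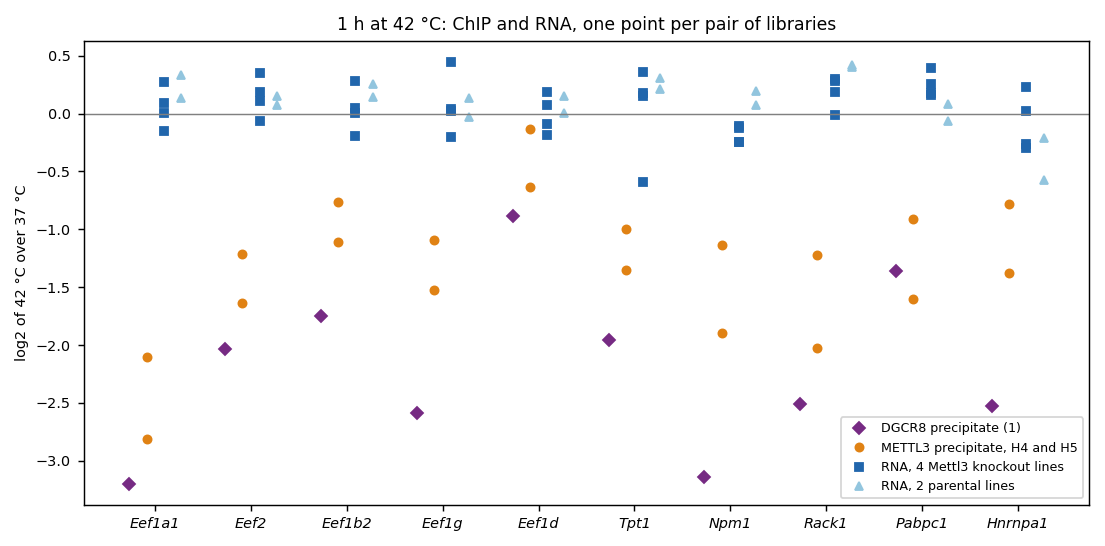
Log2 of 42 °C over 37 °C for the 10 genes, one point per pair of libraries, for ChIP of DGCR8 and METTL3 and for RNA. ChIP points lie below 0 for every gene and reach −3.20 for Eef1a1 with DGCR8, and RNA points lie around 0.

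The lower signal at 42 °C was not limited to the 10 genes. All 81 ribosomal protein genes were lower with METTL3, with a median of −1.06 and 4 called (edgeR; Rpl3 −1.99, Rps6 −1.89, Rps20 −1.76 and Rplp1 −2.12), and 78 of 81 were past 2-fold lower with DGCR8, with a median of −2.26. The other elongation genes had 9 of 16 lower with METTL3, with a median of −0.10, and 16 of 16 lower with DGCR8, with a median of −0.44. The TOP control genes had 10 of 15 lower with METTL3, with a median of −0.18, and 15 of 15 with DGCR8, with a median of −0.78. The 10 ES marker genes were lower as well, with medians of −1.02 for METTL3 and −2.05 for DGCR8. The 8 heat shock genes went the other way, with medians of 3.32 and 2.04; 4 were called higher with METTL3, such as Hspa1a at 9.20. The 42 °C and the input comparisons share the 37 °C precipitates, and all inputs of this set were taken at 37 °C.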

How the data were processed

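The deposited RNA and ChIP tables hold raw read counts, per gene and per 5 kb window, that the authors made from their reads; the submitters' processing notes name Bowtie and the build mm10. RNA was depleted of ribosomal RNA and made into libraries with ScriptSeq v2, per the labels' protocols; the aligner's version and options, the annotation and the strand setting of the counting are not given in the sources used here. Of 39017 gene identifiers 37607 had a symbol. Of 546202 windows 526765 were used. No 2 libraries held identical values.

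Counts were tested with the quasi-likelihood test of edgeR 4.0.16 (limma 3.58.1, R 4.3.3), with TMM scaling. RNA genes were filtered per group by filterByExpr, and ChIP genes and windows by a mean of at least 10 counts. The p-values were adjusted by Benjamini-Hochberg across every gene or window in the fit, and the threshold was 0.05. There were 1 fit per floxed line (14973 and 16262 genes), 1 joint fit (16606), 1 for the heat RNA set (15635) and 1 per ChIP set (30097 and 30460 genes). The METTL3 set was also fitted over 477127 windows. Every adjusted p comes from these fits; errors are SEs of the log2 change. The procedure was first tested on simulated data. RNA CPM are TMM-scaled, ChIP CPM scale to library totals. Ratios of single ChIP libraries used a pseudocount of 1 count and genes with at least 50 reads in both libraries together, with 95% intervals for counting error.

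Alternatives were DESeq2 1.42.0, other scalings, no filter, only the groups compared, each library left out, a replicate block, and start windows alone; the run of the heat RNA set as a term was added after seeing the data. Heat RNA libraries pair by cell line, since the deviations of the same line at both temperatures correlated at 0.476 to 0.742, and METTL3 ChIP libraries pair by the culture name H4 or H5. The members and the lists were chosen with earlier results of these data known. All 10 members are named; of every other list, up to 4 genes per comparison with the smallest p.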

Additional observations from a re-analysis of the deposited data

Results flagged for a closer look

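Eef2 RNA in line 3xU, the second METTL3KO line, stood at 1988 CPM at 37 °C, apart from the other 3 METTL3KO lines at 1792, 1793 and 1816 CPM. It is given here because its gap to the nearest line is large against the range of the group; of 20 groups checked in this way chance gives about 1 in 20.

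Npm1 RNA moved with heat in opposite directions in the 2 genotypes. The log2 change at 42 °C against 37 °C was −0.25, −0.25, −0.12 and −0.11 in the METTL3KO lines 1d1, 3xU, 1d2 and 2c4d, and 0.07 and 0.20 in the parental cultures, a difference between the means of −0.32. The test of the difference itself gave −0.33 ± 0.37 and did not pass in edgeR (unadjusted p = 0.395). That fit ignores the pairing of libraries by cell line; with the cell line as a block it gave −0.32 ± 0.13 (unadjusted p = 0.0291, adjusted p = 0.788, edgeR), which did not pass either.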

How the results depend on the processing

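Of 310 counts or medians recomputed under an alternative, 281 stayed within the limits set for the same result, 12 were weaker, 7 stronger and 10 moved. Members called at 96 h in the DGCR8 line were 1 with library totals and 0 with only the groups compared. The average at 96 h kept 2 with only the groups compared, and the 96 h minus 24 h effect had 6 with no filter on low counts. In the floxed lines libraries of 1 number share only that number (correlations from −0.324 to 0.226); with the replicate block the counts were 2 in the Drosha line at 96 h, 2 in the DGCR8 line, 3 in the average and 1 for 96 h minus 24 h. For METTL3 at 42 °C against 37 °C the block gave 4 members, DESeq2 8 and library totals 1; in the paired heat RNA and other ChIP comparisons the block changed no call except Eef1b2, which it added to the heat set at 37 °C. No paired analysis was possible for METTL3KO against parental cells because a cell line has 1 genotype.

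Start windows alone could be used only for the 6 members with a RefSeq start, so Eef1g, Eef1d, Npm1 and Pabpc1 were left out. For METTL3 over input 2 of these members were called, and 4 in the heat set at 37 °C. Eef1a1 turned to −0.11 and Hnrnpa1 to 1.26, in a fit scaled to the start windows of all genes. Over these 6 genes the medians of the single-library ratios were −0.15 for DGCR8 with formaldehyde, 1.03 with DSG, 0.73 for Drosha, 0.070 for DGCR8 in wild-type cells, −0.68 for knockout over wild type, 1.89 for the heat set at 37 °C and −1.99 for 42 °C over 37 °C. The main medians are over 10 genes, so both the window and the set of genes changed. With TMM factors over windows the medians of all 10 genes became −0.17 with formaldehyde, 1.26 with DSG and −2.53 for 42 °C over 37 °C. Within 5 bases of the start 1 member kept a tract.

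Leaving out 1 library in turn, other than the 1 Drosha library with 4OHT at 96 h, gave 0 to 4 members in the DGCR8 line at 96 h, 0 to 1 in the Drosha line at 48 h, 3 to 5 at 96 h, 3 to 6 in the average at 96 h, 0 to 2 for the difference between the lines at 96 h, 2 to 7 for 96 h minus 24 h, 3 to 6 for METTL3 over input and 3 to 8 in the heat set at 37 °C. The causes of these changes were not tested. Single-library ratios have no replicate check, and a difference within their spread was not detectable at this depth.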
